A study of Mus musculus with 27 samples.

Results

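The genes described here are Tnf, which encodes the inflammatory cytokine tumour necrosis factor, and 9 genes whose products restrain inflammatory signalling: Socs1, Socs3, Cish, Tnfaip3, Nfkbia, Il10, Il10ra, Dusp1 and Zfp36. The 10 genes were listed by symbol and matched to the Ensembl mouse identifiers of the count table, which holds 38124 genes. All 10 were found, and all 10 were among the 13599 genes that passed the filter on low counts. Polyadenylated RNA was sequenced from alveolar macrophages of C57B/6 mice aged 8 to 14 weeks, washed from the lung by lavage and sorted on CD11c and CD11b. Resident macrophages were sorted as CD11c+CD11b- cells, and recruited macrophages as CD11c-CD11b+ cells. Resident cells came from untreated mice (called day 0) and from mice 3, 6, 9 and 12 days after 20 ng of lipopolysaccharide (LPS, a bacterial cell wall component) in 50 µL of buffered saline was instilled into the trachea. Recruited cells came from the same 4 days after LPS and have no untreated group. Each of the 9 groups had 3 libraries. The labels do not say that the libraries of a group came from separate animals, so p-values measure the spread between these samples, which may be technical.

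TNF and bacterial products activate NF-kB, a transcription factor that is held in the cytoplasm by inhibitor proteins of the IkB family. NF-kB in turn switches on genes that end the signal, among them Nfkbia, which encodes the inhibitor IkB-alpha, and Tnfaip3, which encodes the ubiquitin-editing enzyme A20. Cytokines that signal through JAK kinases and STAT factors induce the SOCS proteins and CIS (Cish), which block the same receptors and kinases. In macrophages the cytokine IL-10, acting through its receptor chain IL-10R alpha (Il10ra) and STAT3, lowers inflammatory gene expression. Dusp1 encodes a phosphatase that inactivates the stress-activated MAP kinases, and Zfp36 encodes tristetraprolin, which binds AU-rich elements in 3′ untranslated regions and speeds the decay of messages such as that of Tnf.

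Libraries held 11093216 to 18299674 counts in genes (median 14859352). In these bulk samples fewer cells of a type and less RNA per cell cannot be told apart. Summed markers of resident alveolar macrophages were 17454 to 35322 CPM in resident and 2484 to 11447 CPM in recruited libraries, where CPM is a gene's count scaled to a common library total with TMM factors (an adjustment for library composition). Neutrophil markers differed between groups in level. Over 14 such genes the summed level was 117 to 140 CPM in untreated resident cells, 232 to 276 in resident cells on day 3, 532 to 1115 in recruited cells on day 3 and 292 to 449 in recruited cells later. Csf3r (419 CPM) and S100a8 (159 CPM) gave most of the recruited day 3 sum, while Ly6g, Elane and Mpo stayed at or below 0.314 CPM in all libraries. Mean S100a9 was 0.133 CPM in untreated, 46.4 in resident day 3 and 102 in recruited day 3 cells, and Mmp9 was 0.128, 23.5 and 44.5. Of 11 tested neutrophil markers, 6 were higher in resident day 3 than in untreated cells and 0 lower. Means of Cxcr2 and Mmp8 were lower in resident day 3 than in untreated cells, without passing. Monocyte markers also moved with day and population. Over 14 of them the summed level was 1246 to 2003 CPM in untreated resident cells, 3150 to 4074 in resident cells on day 3, 4542 to 11790 in resident cells later and 12238 to 47859 in recruited cells. In resident cells on day 3, 7 of these 14 were higher than in untreated cells and 0 lower, where 23.8% of all tested genes passed in either direction. Mean Itgam, the CD11b gene, was 6.91 CPM in untreated and 398 in resident day 3 cells, and Ly6c2 was 0.0838 and 50.1. Of 16 T and NK cell markers the sum was 87.5 to 304 CPM in resident and 57.5 to 195 in recruited libraries, most of it from 2 genes. Mean Cd2 was 259 CPM in untreated cells and 4.26 in recruited day 3 cells, while Il7r was 7.98 in resident and 76.6 in recruited cells on day 3, and the other 14 markers stayed at or below 7.27 CPM in all libraries. Averaged over days 3 to 12, 10 of 13 tested T and NK cell markers were higher in recruited cells and 1 lower, where 60.3% of all tested genes passed. The part of neutrophils, monocytes and lymphocytes in the results, the resident day 3 changes included, was not tested. In recruited day 6 replicate 2, 26.5% of reads lay outside genes, against a median of 9.70%. A deposited header gives each library a number, and these numbers were divided here by inspection. The sets, called runs, go from 2 to 9, from 12 to 18, from 19 to 28 and from 34 to 53. Their limits are not marked in the header. The numbers 18 and 19 follow each other without a break, and gaps also occur within runs. What the numbers stand for is unknown from the sources read here. These runs touch Dusp1, Zfp36 and Tnfaip3.

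Promoter windows of 300 bases (250 before to 50 after the start) were taken from RefSeq, build GRCm38.p6, for the 8 members it holds. They are shown in pairs that the values below set side by side. Capitals mark each match, on either strand, to the NF-kB consensus, the STAT element TTCNNNGAA, the cAMP elements TGACGTCA and TGACG (the short form lies within the long one), the CArG box of serum response factor, and TATAAA. Among 32851 promoter windows of the same length, 8.46% hold the NF-kB consensus, 8.30% the STAT element, 1.79% TGACGTCA, 20.8% TGACG, 1.63% a CArG box and 13.6% TATAAA. A match is a description of the letters and shows no binding. Nfkbia and Tnfaip3, the NF-kB inhibitors, lie on the minus strand at chr12:55492598-55492897 and chr10:19015361-19015660. The Nfkbia window holds the NF-kB consensus at -29 to -20 from the start. The Tnfaip3 window shown holds it at -125 to -116 and again at -12 to -3. A second Tnfaip3 window, at chr10:19011914-19012213, holds none of the motifs searched and is not printed.
Nfkbia: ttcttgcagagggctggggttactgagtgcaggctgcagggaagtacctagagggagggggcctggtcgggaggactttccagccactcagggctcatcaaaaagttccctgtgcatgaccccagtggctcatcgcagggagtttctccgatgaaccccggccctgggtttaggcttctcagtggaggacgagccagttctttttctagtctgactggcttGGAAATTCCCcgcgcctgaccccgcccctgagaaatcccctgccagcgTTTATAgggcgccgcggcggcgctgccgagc
Tnfaip3: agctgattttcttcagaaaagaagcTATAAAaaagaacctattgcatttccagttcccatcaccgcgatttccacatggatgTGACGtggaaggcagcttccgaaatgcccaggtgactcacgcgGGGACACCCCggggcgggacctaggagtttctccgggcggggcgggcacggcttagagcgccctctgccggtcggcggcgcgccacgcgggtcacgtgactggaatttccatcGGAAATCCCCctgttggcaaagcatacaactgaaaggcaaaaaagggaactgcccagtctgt

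Socs3 (minus strand, chr11:117969317-117969616) and Cish (plus strand, chr9:107296409-107296708) are shown because both windows hold STAT elements, although the messages behaved differently. Socs3 has a STAT element at -154 to -146. Cish has a pair at 1 to 9 and 12 to 20. The Socs1 window holds none of the motifs searched, and that of Tnf holds only TATAAA, at -29 to -24.
Socs3: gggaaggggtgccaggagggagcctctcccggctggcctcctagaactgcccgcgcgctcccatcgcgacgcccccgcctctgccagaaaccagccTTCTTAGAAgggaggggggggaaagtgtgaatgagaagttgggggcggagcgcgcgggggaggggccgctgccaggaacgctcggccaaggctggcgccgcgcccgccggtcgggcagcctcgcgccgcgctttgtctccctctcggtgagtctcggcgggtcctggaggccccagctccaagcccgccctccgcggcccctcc
Cish: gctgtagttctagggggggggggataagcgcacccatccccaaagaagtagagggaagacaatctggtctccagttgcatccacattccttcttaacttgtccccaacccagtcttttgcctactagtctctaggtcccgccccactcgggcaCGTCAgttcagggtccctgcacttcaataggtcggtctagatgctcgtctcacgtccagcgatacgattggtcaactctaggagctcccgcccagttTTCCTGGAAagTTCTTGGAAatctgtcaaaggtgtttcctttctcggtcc

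Dusp1 (minus strand, chr17:26508423-26508722) and Zfp36 (minus strand, chr7:28379179-28379478) are shown because their levels moved together with library number. Dusp1 has TGACGTCA at -143 to -136. Zfp36 has a CArG box at -58 to -49 and a STAT element at -17 to -9.
Dusp1: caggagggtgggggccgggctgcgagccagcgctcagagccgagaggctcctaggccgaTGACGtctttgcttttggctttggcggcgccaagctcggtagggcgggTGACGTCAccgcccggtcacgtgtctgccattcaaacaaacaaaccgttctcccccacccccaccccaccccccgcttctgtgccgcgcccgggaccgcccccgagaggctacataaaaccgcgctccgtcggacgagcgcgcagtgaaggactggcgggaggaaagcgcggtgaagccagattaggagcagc
Zfp36: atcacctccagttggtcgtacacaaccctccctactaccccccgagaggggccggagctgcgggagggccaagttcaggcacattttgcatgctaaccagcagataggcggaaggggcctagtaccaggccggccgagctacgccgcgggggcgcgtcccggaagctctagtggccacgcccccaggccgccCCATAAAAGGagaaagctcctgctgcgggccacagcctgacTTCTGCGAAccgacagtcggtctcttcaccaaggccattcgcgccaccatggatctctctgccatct

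The AU-rich letters that tristetraprolin is known to bind were counted in the annotated 3′ untranslated regions. The Tnf region, 764 bases long, held 8 copies of ATTTA and 5 overlapping copies of the nonamer TTATTTATT. At least 2 nonamers occurred in 1.58% of the 11737 tested genes with an annotated region of 50 bases or more. At least 1 nonamer occurred in 7.46% of them and at least 1 ATTTA in 67.5%, with a median of 1.26 copies of ATTTA per kilobase. Dusp1 and Cish held 2 nonamers each and Il10ra 3, while Tnfaip3, Nfkbia and Zfp36 itself held 1 each. Il10 held 6 copies of ATTTA without a nonamer, Socs3 held 4, and Socs1 held none in 1993 bases. The densest part of the Tnf region, its bases 437 to 466, is printed with the pentamers in capitals.
Tnf: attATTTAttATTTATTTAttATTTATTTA

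Tnf (ENSMUSG00000024401, GRCm38 chromosome 17, 35199381 to 35202007, protein coding) was highest on day 3 in both populations. The 3 untreated resident libraries had 36.7, 26.7 and 33.1 CPM, in the order of their replicate numbers. Resident cells on day 3 had 76.2, 82.1 and 109 CPM, and recruited cells 162, 329 and 182 CPM. These 3 groups did not overlap. On day 6 the resident libraries had 10.8, 12.3 and 10.5 CPM and the recruited ones 9.30, 16.3 and 13.6 CPM. On day 9 they had 15.1, 11.3 and 5.69 CPM and 6.32, 15.4 and 8.16 CPM, and on day 12 they had 5.79, 12.6 and 19.1 CPM and 5.74, 6.77 and 58.4 CPM. From day 6 both populations overlapped on each day, and recruited day 12 replicate 3 stood high. Resident day 12 replicate 3, at 19.1 CPM, was also the highest of its group.

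In recruited cells Tnf fell after day 3, with a log2 difference from day 3 of -4.10 ± 0.69 (SE) on day 6 (adjusted p = 0.00014), -4.51 ± 0.70 on day 9 and -3.23 ± 0.65 on day 12 (adjusted p = 4.78e-05 and 0.000571). The day 12 call was lost when only the compared groups were fitted (-3.22, adjusted p = 0.0755), and without recruited day 12 replicate 3 the difference was -5.15. In resident cells the day 3 difference from untreated cells, 1.47 ± 0.62 log2, did not pass in the fit of all groups (adjusted p = 0.0919). It passed with the compared groups alone (1.46, adjusted p = 0.000293) and with a block on replicate number (1.45, adjusted p = 0.000232). Taken over all comparisons in time, replicate numbers did not pair libraries (10 of 21 pairs correlated best with their own number). All later resident libraries lay below all untreated ones, with differences of -1.52 ± 0.64, -1.59 ± 0.64 and -1.36 ± 0.64 log2 on days 6, 9 and 12. None of these passed in the fit of all groups (adjusted p = 0.187, 0.217 and 0.406). The day 6 difference passed with the compared groups alone (-1.55, adjusted p = 0.00031) and with the number block (-1.54, adjusted p = 8.19e-05). Recruited minus resident cells on day 3 gave 1.33 ± 0.61 log2 (adjusted p = 0.0803). With a replicate block, that is, comparing libraries of equal day and number, it was 1.27 ± 0.45 (adjusted p = 0.0398).

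**Figure D1:**
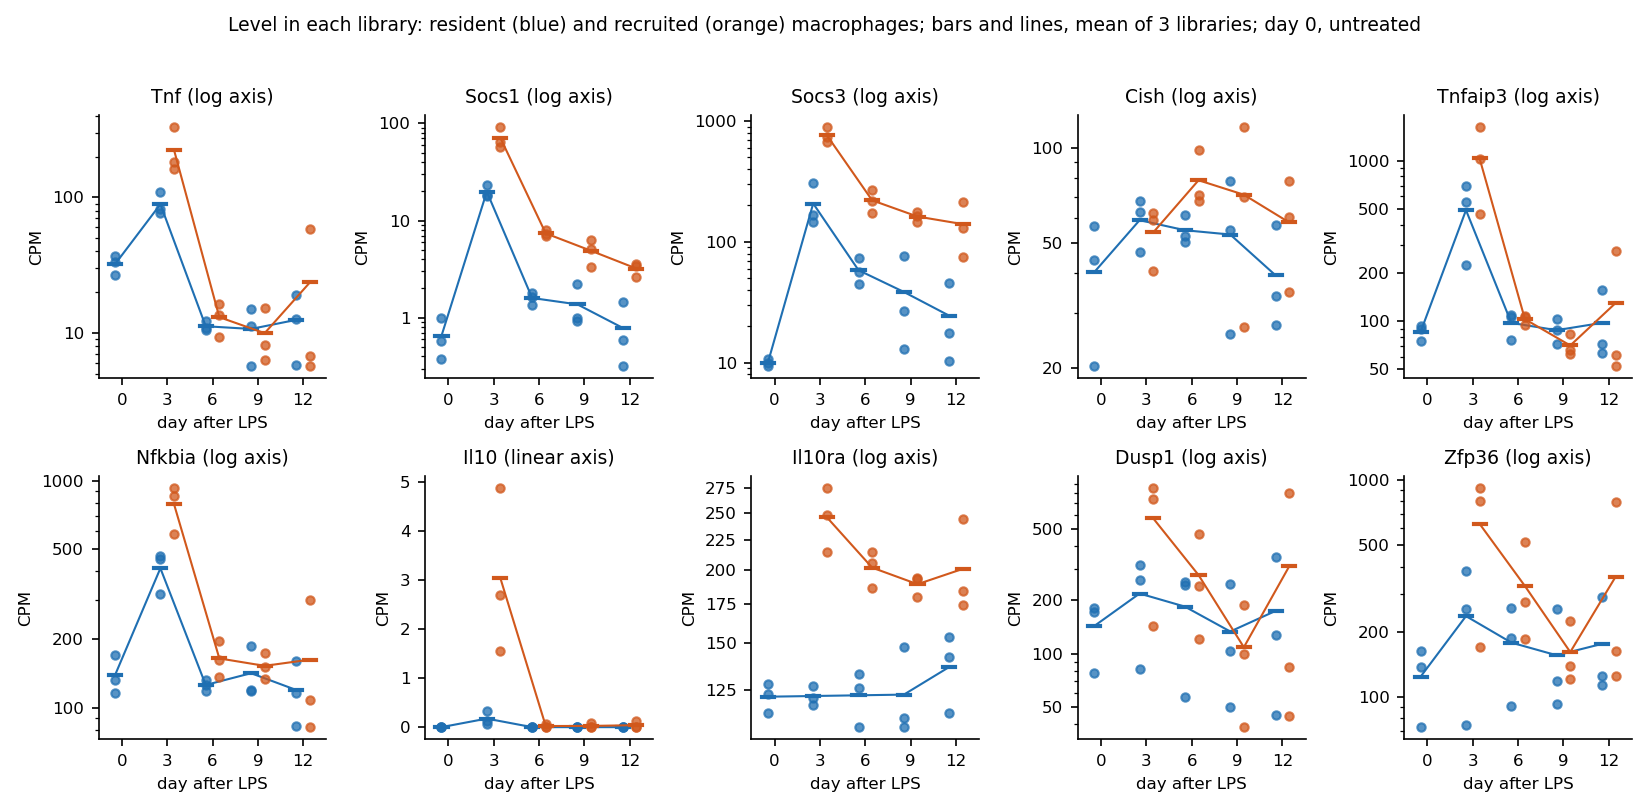
Level of the 10 genes in each of the 27 libraries in CPM (vertical axes, log scale except for Il10) against day after LPS, for resident (blue) and recruited (orange) cells, with lines and bars at the mean of 3 libraries. Recruited day 3 has the highest mean for all genes but Cish, and recruited day 12 replicate 3 lies apart from its group in Tnf (58.4 CPM), Tnfaip3 (275 CPM), Nfkbia (299 CPM), Dusp1 (799 CPM) and Zfp36 (788 CPM). Resident day 12 replicate 3 is also the highest of its group in these genes (19.1, 157, 160, 348 and 290 CPM).

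Il10 (ENSMUSG00000016529, chromosome 1, 131019845 to 131024974), which encodes the anti-inflammatory cytokine, was near the detection limit outside day 3. Recruited day 3 libraries had 1.55, 4.87 and 2.69 CPM, 122 counts in all. Resident day 3 libraries had 0.131, 0.333 and 0.0592 CPM, 7 counts in all. The 3 later recruited groups held 1, 1 and 2 counts, and the other resident groups held 0, which allows up to 3 counts a group (0.0623 to 0.0674 CPM). Recruited exceeded resident cells 18.6-fold on day 3 (95% exact interval 8.77 to 47.3, counting error only), or by 4.15 ± 0.75 log2 in the fit (adjusted p = 0.000304). The fall in recruited cells from day 3 passed on each later day, with ratios of day 3 over later days of 115 (20.2 to 4574), 138 (24.4 to 5505) and 61.9 (16.8 to 517). Against untreated resident cells, recruited day 3 cells were at least 43.9-fold higher, taking 3 counts over the group as the floor.

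Il10ra (ENSMUSG00000032089, chromosome 9, 45253837 to 45269149), the ligand-binding receptor chain, separated the populations and hardly moved in resident cells. Resident group means were 122 ± 7.10 CPM in untreated cells (SD, n = 3), 122 ± 4.34 on day 3, 122 ± 12.8 on day 6, 123 ± 21.9 on day 9 and 137 ± 20.5 on day 12. Recruited libraries had 214, 275 and 248 CPM on day 3, 205, 186 and 214 on day 6, 180, 194 and 193 on day 9, and 184, 174 and 244 on day 12. All 12 recruited libraries were above all 15 resident ones, whose highest value was 154 CPM. Recruited cells were higher by 1.01 ± 0.14, 0.72 ± 0.14, 0.62 ± 0.14 and 0.55 ± 0.14 log2 on days 3, 6, 9 and 12 (adjusted p = 2.77e-06, 0.000232, 0.0012 and 0.00411). The gap on day 12 minus that on day 3 was -0.46 ± 0.19 log2 (adjusted p = 0.128), and -0.46 ± 0.14 with the replicate block (adjusted p = 0.0349). In resident cells the day 3 difference from untreated cells was 0.00 ± 0.14 log2.

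Socs1 (ENSMUSG00000038037, chromosome 16, 10782240 to 10785536), whose product blocks JAK kinases downstream of interferon receptors, had the widest range of the 9 members other than Il10, with a 109-fold ratio of the highest to the lowest group mean. Untreated resident libraries had 0.578, 0.995 and 0.377 CPM, 28 counts in all. On day 3 resident libraries had 23, 18.1 and 18.3 CPM and recruited ones 91.0, 64.1 and 57.3 CPM. On day 6 the values were 1.81, 1.63 and 1.35 CPM in resident and 7.91, 7.24 and 6.99 CPM in recruited cells. On day 12 resident libraries had 0.318, 0.588 and 1.45 CPM and recruited ones 2.60, 3.42 and 3.60 CPM. Recruited libraries were above resident ones on each day without overlap, and both populations were lower on each later day than on day 3.

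The rise of Socs1 in resident cells on day 3 was 4.94 ± 0.39 log2 over untreated cells (adjusted p = 3.66e-09). By day 6 the difference was 1.32 ± 0.45 (adjusted p = 0.0828) and by day 12 it was 0.35 ± 0.49 (adjusted p = 0.868). In recruited cells Socs1 fell, and the differences from day 3 were -3.26 ± 0.31, -3.84 ± 0.31 and -4.45 ± 0.33 log2 on days 6, 9 and 12 (adjusted p = 4.42e-08, 3.54e-09 and 6.41e-10). The gap between populations was 1.84 ± 0.28, 2.21 ± 0.34, 1.84 ± 0.35 and 1.98 ± 0.39 log2 on the 4 days, each past the threshold (adjusted p = 1.25e-05, 2.35e-05, 0.000262 and 0.000582). Its difference between days 12 and 3 was 0.14 ± 0.46 log2 (adjusted p = 0.881) and did not pass.

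Socs3 (ENSMUSG00000053113, chromosome 11, 117966079 to 117970047), the inhibitor of gp130 receptor and STAT3 signalling, followed the same course at a higher level and with a slower return. Untreated resident libraries had 9.89, 9.34 and 10.6 CPM. Resident cells had 147, 308 and 168 CPM on day 3, 44.8, 56.6 and 73.1 on day 6, 26.6, 75.8 and 12.9 on day 9, and 45.6, 10.2 and 17.5 on day 12. Recruited cells had 671, 888 and 736 CPM on day 3, 174, 270 and 218 on day 6, 164, 176 and 146 on day 9, and 131, 74.3 and 215 on day 12. Recruited libraries were above resident ones on each day. In recruited cells the differences from day 3 were -1.79 ± 0.53, -2.24 ± 0.54 and -2.45 ± 0.54 log2 on days 6, 9 and 12 (adjusted p = 0.0134, 0.00276 and 0.00121), the day 6 call being lost without recruited day 6 replicate 1 (-1.62, adjusted p = 0.0625). Resident cells were higher than untreated by 4.38 ± 0.60 log2 on day 3 (adjusted p = 3.38e-05) and by 2.54 ± 0.57 on day 6 (adjusted p = 0.00891), and the differences of 1.94 ± 0.56 on day 9 and 1.30 ± 0.55 on day 12 did not pass (adjusted p = 0.0591 and 0.338). The day 9 difference passed without resident day 9 replicate 3 (2.35 log2, adjusted p = 0.0282). The gap between populations was 1.88 ± 0.53, 1.92 ± 0.53, 2.08 ± 0.54 and 2.52 ± 0.55 log2 on days 3, 6, 9 and 12 (adjusted p = 0.0063, 0.00774, 0.00527 and 0.00178). The day 9 gap was 2.09 with the compared groups alone (adjusted p = 0.0508).

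Cish (ENSMUSG00000032578, chromosome 9, 107296026 to 107302784), the STAT5-induced member of the family, took a different course from Socs1 and Socs3. The annotated gene overlaps the antisense gene Gm17041, and whether reads were counted by strand is unknown from those sources. Its group means spanned 39.4 to 78.8 CPM, a 2.00-fold range, and neighbouring groups in the order of means overlapped throughout. Recruited day 3 libraries had 62.0, 58.8 and 40.7 CPM against 62.5, 67.6 and 46.6 in resident cells, so that recruited cells were not higher in any of the 3 pairs. On days 6, 9 and 12 recruited cells were higher in all 9 pairs, by 0.08 to 0.96 log2. With the replicate block Cish differed by 0.51 ± 0.14 log2 on day 6 and 0.55 ± 0.14 on day 12 (adjusted p = 0.00711 and 0.00604), against 0.53 ± 0.46 and 0.56 ± 0.46 without it (adjusted p = 0.411 and 0.415). The gap on day 6 exceeded that on day 3 by 0.65 ± 0.19 log2 with the block (adjusted p = 0.0343, and 0.607 without it).

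**Figure D2:**
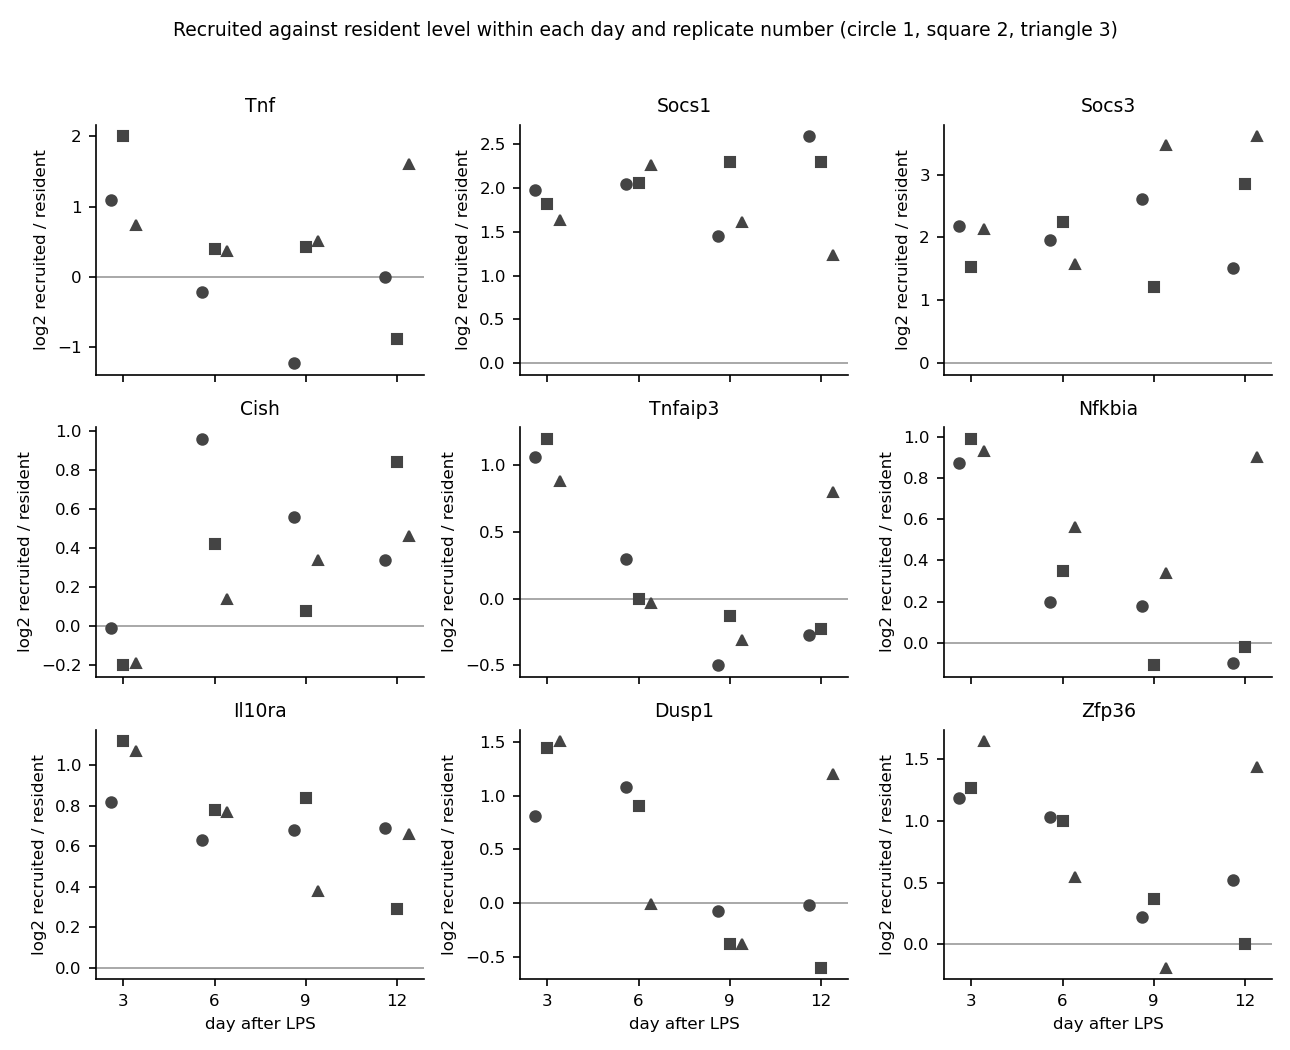
Log2 ratio of recruited over resident CPM (vertical axes) in each of 12 pairs of equal day and replicate number, against day after LPS, for 9 genes; circles, squares and triangles are replicate numbers 1, 2 and 3. Socs1, Socs3 and Il10ra lie above 0 in 12 of 12 pairs, Cish lies at or below 0 on day 3 and above it on the later days, and Tnfaip3 lies above 0 in all 3 pairs on day 3 and in none on day 9.

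Nfkbia (ENSMUSG00000021025, chromosome 12, 55489410 to 55492647) and Tnfaip3 (ENSMUSG00000019850, chromosome 10, 19000910 to 19015657), the NF-kB inhibitors whose promoters are shown, had their highest means on day 3, with later means near those of untreated cells. Nfkbia libraries had 170, 116 and 132 CPM in untreated cells. On day 3 they had 319, 466 and 452 CPM in resident and 586, 928 and 860 CPM in recruited cells, without overlap. From day 6 the resident group means were 119 to 142 CPM and the recruited ones 153 to 165 CPM. In resident cells Nfkbia rose by 1.57 ± 0.35 log2 by day 3 (adjusted p = 0.00284). In recruited cells the differences from day 3 were -2.26 ± 0.36, -2.37 ± 0.36 and -2.28 ± 0.36 log2 on days 6, 9 and 12 (adjusted p = 6.25e-05, 2.88e-05 and 3.53e-05). The populations differed by 0.94 ± 0.35 log2 on day 3 (adjusted p = 0.0304), a call that was lost without resident replicate 1 or 3 or recruited replicate 2 or 3 of that day (0.78 to 1.01 log2, adjusted p = 0.0541 to 0.121), with scaling by library size alone (0.82, adjusted p = 0.0606) and with no low-count filter (0.94, adjusted p = 0.0688). With the replicate block the value was 0.93 ± 0.15 (adjusted p = 0.000171).

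Tnfaip3 had 93.0, 75.1 and 89.8 CPM in untreated cells, 223, 701 and 553 CPM in resident cells on day 3 and 467, 1616 and 1019 CPM in recruited cells on day 3. Replicate 1 was the lowest in both day 3 groups, and the groups overlapped although recruited cells were higher in each pair. Later group means were 87.9 to 97.7 CPM in resident and 70.6 to 130 CPM in recruited cells. The rise in resident cells by day 3 was 2.52 ± 0.56 log2 (adjusted p = 0.00269), and in recruited cells the differences from day 3 were -3.33 ± 0.57, -3.87 ± 0.59 and -2.99 ± 0.57 on days 6, 9 and 12 (adjusted p = 0.000178, 3.5e-05 and 0.00028). The day 12 call was lost with the compared groups alone (-2.99, adjusted p = 0.0516). Recruited cells differed from resident ones on day 3 by 1.07 ± 0.53 log2 (adjusted p = 0.106), and by 1.05 ± 0.17 with the replicate block (adjusted p = 0.000155). Without recruited day 3 replicate 1 the unblocked difference was 1.42 (adjusted p = 0.0421). With the block, the gap on day 6 minus that on day 3 was -0.96 ± 0.24 log2, and that on day 12 minus day 3 was -0.94 ± 0.24 (adjusted p = 0.016 and 0.0146, against 0.474 and 0.61 without it).

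Dusp1 (ENSMUSG00000024190) and Zfp36 (ENSMUSG00000044786, chromosome 7, 28376784 to 28380253) spread widely within groups. The annotated Dusp1 gene (chromosome 17, 26505590 to 26562128) overlaps Ergic1 on the opposite strand, and Zfp36 overlaps the antisense gene Gm44710. Dusp1 had 77.5, 171 and 180 CPM in untreated cells and 81.7, 313 and 258 CPM in resident cells on day 3. Recruited cells had 143, 848 and 736 CPM on day 3, 120, 468 and 241 on day 6, 99.0, 38.6 and 188 on day 9 and 44.4, 84.5 and 799 on day 12. Zfp36 had 73.0, 138 and 163 CPM in untreated cells, 74.7, 380 and 255 in resident cells on day 3, and 170, 915 and 801 in recruited cells on day 3. On day 12 recruited cells had 164, 125 and 788 CPM of Zfp36. Resident cells on day 12 had 45.2, 128 and 348 CPM of Dusp1 and 114, 125 and 290 CPM of Zfp36. Replicate 1 was the lowest library of both genes in all 3 of these earlier groups.

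Library numbers ran with these differences. In each of the 9 groups, all libraries numbered 19 to 53 (16 libraries) had more Dusp1 than all libraries numbered 2 to 18 (11 libraries). This held for 17 of all tested genes (0.125%), which also include Fos, Fosb and Klf4, immediate early genes that cells switch on within minutes of a stimulus. For Zfp36 and Tnfaip3 it held in 8 of 9 groups. Within groups the later numbers were higher by 2.21 ± 0.31 log2 for Dusp1 (adjusted p = 0.00051), 1.34 ± 0.28 for Zfp36 (adjusted p = 0.00554) and 0.80 ± 0.25 for Tnfaip3 (adjusted p = 0.0431, and 0.0787 with no low-count filter), and the other 7 members did not pass. Of all tested genes 13.5% passed in this comparison, which was chosen after the data were seen. The limit between 18 and 19 does not lie at a break in the numbers. Of 21 tested immediate early genes 10 were higher and 0 lower, and of 10 heat shock genes 4 were higher and 0 lower. The part of what these numbers mark in the results was not tested. Each of the 12 pairs of equal day and replicate number lies within a run.

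**Figure D3:**
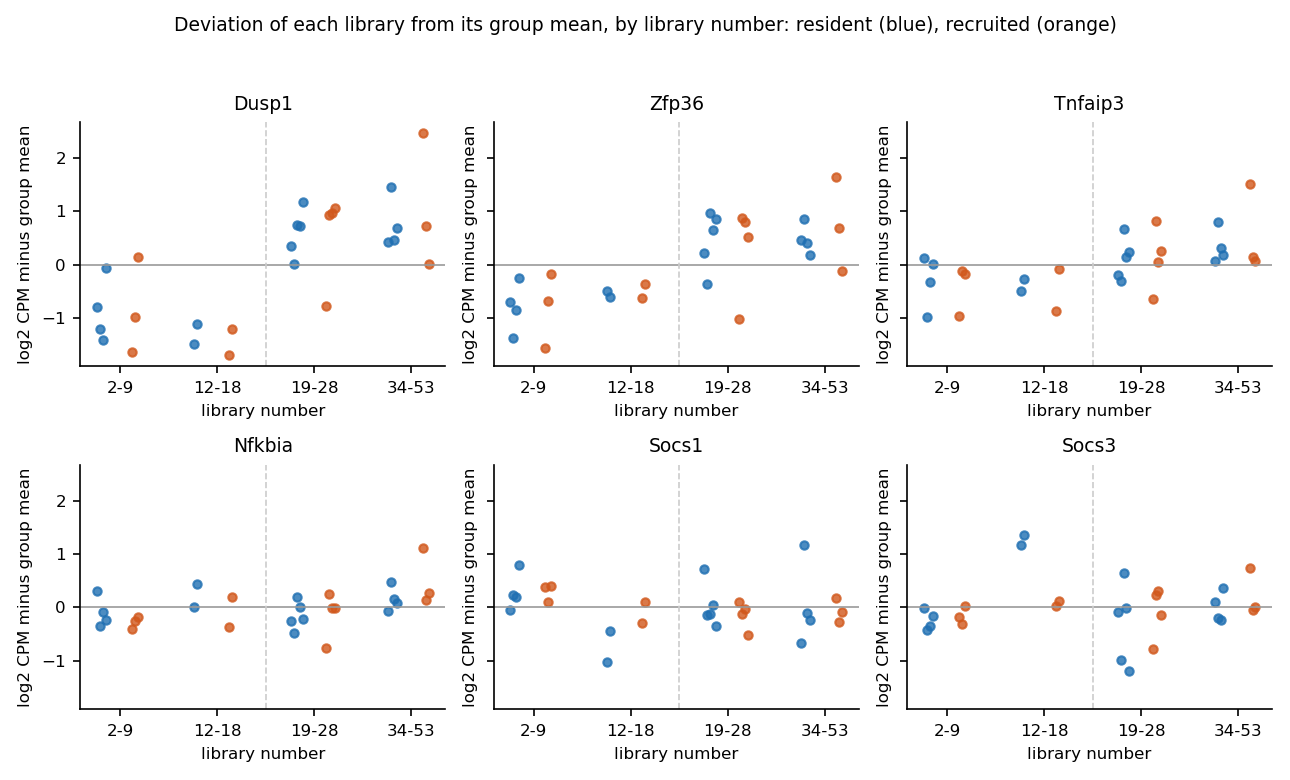
Deviation of each library from its group mean in log2 CPM (vertical axes) against the run of library numbers (horizontal axes), for resident (blue) and recruited (orange) cells and 6 genes. Libraries numbered 19 to 53, right of the dashed line, lie higher for Dusp1 by 2.21 and for Zfp36 by 1.34 log2 in the fit, whereas Nfkbia, Socs1 and Socs3 did not pass.

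Within pairs, recruited cells exceeded resident cells on day 3 in Dusp1 by 0.81 to 1.51 and in Zfp36 by 1.19 to 1.65 log2 CPM. The fit without the block gave 1.4 ± 1.01 for Dusp1 and 1.41 ± 0.74 for Zfp36 (adjusted p = 0.272 and 0.131), and the replicate block gave 1.26 ± 0.32 and 1.37 ± 0.23 (adjusted p = 0.00804 and 0.00037). With the block Zfp36 also passed on day 6 (0.86 ± 0.22, adjusted p = 0.00931) and day 12 (0.66 ± 0.23, adjusted p = 0.0432). The Zfp36 pairs of day 12 gave 0.52, 0.00 and 1.44 log2 CPM in replicates 1, 2 and 3. The unblocked day 12 difference was 1.03 ± 0.74, and -0.29 without recruited replicate 3; the block was not fitted without that library. Over time in resident cells neither gene passed on any day against untreated cells in the fit of all groups. Dusp1 on day 3 differed by 0.61 log2 (adjusted p = 0.705). With a block on replicate number it was 0.48 and passed (adjusted p = 0.0487), although these numbers did not pair libraries over time. In recruited cells Zfp36 differed from day 3 by -1.96 ± 0.76 log2 on day 9 (adjusted p = 0.0492), and by -1.27 ± 0.53 with library number as a term (adjusted p = 0.0634). On day 12 the differences were -0.90 ± 1.00 for Dusp1 and -0.81 ± 0.73 for Zfp36, and without recruited replicate 3 they were -3.15 and -2.12 (adjusted p = 0.0303 and 0.0408).

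Counted over the members, recruited cells were higher than resident cells in 5 of 10 on day 3 (Socs1, Socs3, Nfkbia, Il10 and Il10ra) and in 3 of 10 on each of days 6, 9 and 12 (Socs1, Socs3 and Il10ra), and lower in 0. Of all tested genes 46.6%, 35%, 32% and 27.3% passed on those days in either direction. The median log2 difference of the members was 1.37, 0.66, 0.27 and 0.88, against 0.05, 0.01, 0.01 and 0.00 over all tested genes. Averaged over the 4 days, 5 members passed (background 60.3%), all higher, and 3 passed without recruited day 12 replicate 3, when Nfkbia (0.27 log2, adjusted p = 0.0557) and Il10 did not. The Il10 call on this average was also lost without recruited day 6 replicate 3 or day 9 replicate 2, which held the only count of their groups. With the replicate block 9 members were higher on the average (background 64.6%), Tnf being the exception (0.44 ± 0.25 log2, adjusted p = 0.164), 9 on day 3 (53%), Cish being the exception, and 5 on day 6 (42.3%) and on day 12 (35.1%), where Cish and Zfp36 joined. For the change of the gap between populations, 0 members passed on day 6 against day 3 (background 8.43%) and 0 on day 12 (13.6%) by edgeR, with 0 and 1 under 0.05 before adjustment and 0 in DESeq2 on either day. With the block 2 passed on day 6 (16.2%), Cish and Tnfaip3, and 4 on day 12 (21.7%), Cish, Tnfaip3, Nfkbia (-0.66 ± 0.22, adjusted p = 0.045) and Il10ra. Without recruited day 12 replicate 3, 3 members passed on day 12, Tnf (-2.33), Nfkbia (-1.27) and Il10ra (-0.62).

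Over time, resident cells on day 3 were higher than untreated cells in 4 of 10 members, Socs1, Socs3, Tnfaip3 and Nfkbia, and lower in 0 (background 23.8%). On day 6 only Socs3 passed (background 6.42%). On days 9 and 12 no member passed in edgeR (background 3.49% and 1.3%), with 3 and 2 members under 0.05 before adjustment and 1 and 0 passing in DESeq2. These comparisons share the untreated libraries. Recruited cells were lower than on day 3 in 6 of 10 members on day 6 and on day 12, Tnf, Socs1, Socs3, Tnfaip3, Nfkbia and Il10, and in 8 on day 9, when Il10ra (-0.38 ± 0.14, adjusted p = 0.035) and Zfp36 joined. No member passed as higher. Cish differed by 0.55 log2 on day 6 (adjusted p = 0.394), and by 0.56 with a block on replicate number, which passed (adjusted p = 0.00411). The background was 31.9%, 36.3% and 39.3% on days 6, 9 and 12, and these comparisons share the day 3 libraries. The median change of the members was -2.03, -2.39 and -2.36 log2, against 0.01, 0.03 and 0.02 over all tested genes. Without recruited day 12 replicate 3, 9 members were lower on day 12. The Il10ra call on day 9 was lost with library number as a term (-0.29 log2, adjusted p = 0.0731). The Il10ra and Zfp36 calls on day 9 were also lost when any 1 of recruited day 3 replicates 2 and 3 and day 9 replicates 1, 2 and 3 was left out (adjusted p = 0.0594 to 0.159), with library size alone (0.203 and 0.0747), with no low-count filter (0.0619 and 0.0998) and with the compared groups alone (0.112 and 0.0651).

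**Figure D4:**
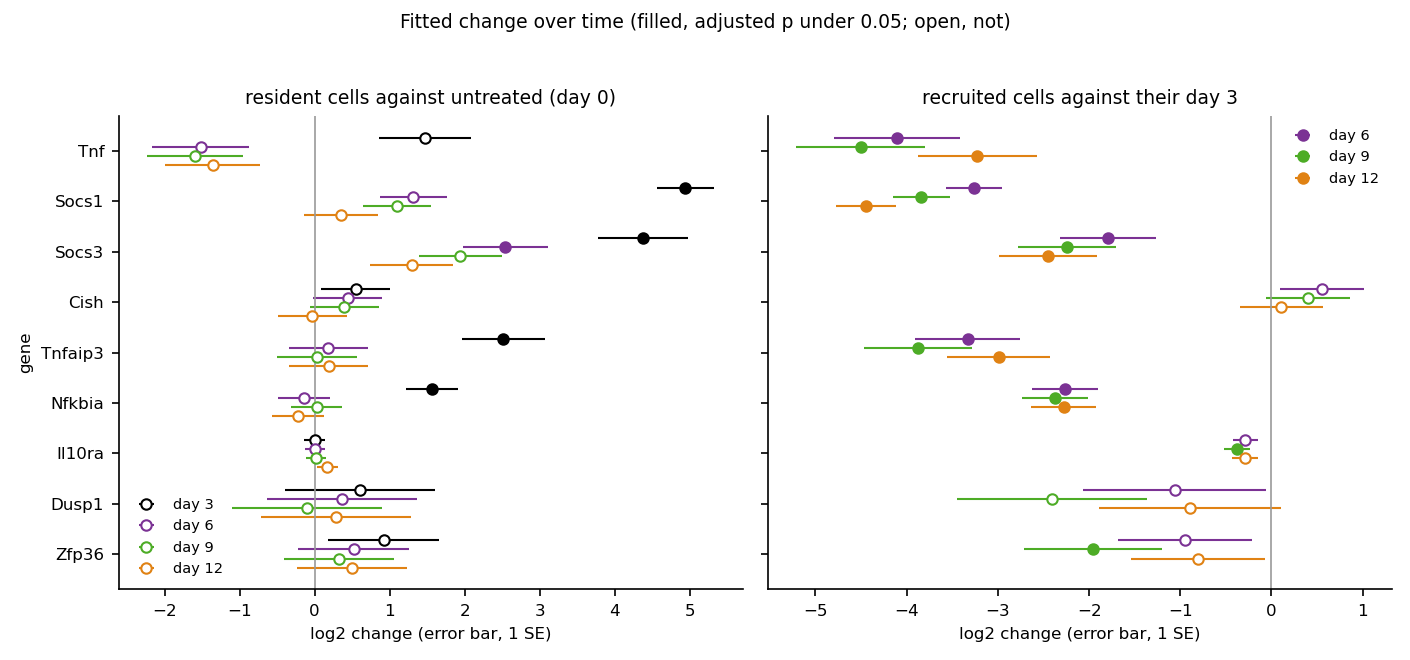
Fitted log2 change with 1 SE (horizontal axes) of 9 genes in resident cells against untreated cells (left, days 3 to 12) and in recruited cells against their day 3 (right, days 6 to 12), filled where the adjusted p is under 0.05. Tnf, Socs1, Socs3, Tnfaip3 and Nfkbia are filled on all 3 later days in recruited cells, and Socs3 is the only gene filled after day 3 in resident cells.

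Levels of different genes are set side by side per kilobase of exon, taking all annotated exons of a gene together. This length can exceed that of the message, so the order between genes is approximate. It was 3470 bases for Zfp36, 6419 for Cish and 7226 for Tnfaip3. In recruited cells on day 3 Nfkbia had 491 CPM per kb, Socs3 265, Zfp36 181, Dusp1 174, Tnfaip3 143, Tnf 137, Il10ra 70.3, Socs1 24.3, Cish 8.38 and Il10 2.32. In untreated resident cells the order began with Nfkbia at 86.5, Dusp1 at 43.1, Zfp36 at 36.0, Il10ra at 34.8 and Tnf at 19.6 CPM per kb, with Tnfaip3 at 11.9, Cish at 6.28, Socs3 at 3.44, Socs1 at 0.224 and Il10 at 0. In this order, which depends on those lengths, Socs3 passed from below Tnfaip3 and Cish to a place next to Nfkbia.

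Other genes of the same pathways were followed in 13 lists of 218 genes, 209 of them tested. Their counts stand against 46.6% of all tested genes that passed in either direction between the populations on day 3, 35%, 32% and 27.3% on days 6, 9 and 12, and 31.9% in recruited cells between days 3 and 6. Lists near these shares show nothing particular to the list. In the TNF pathway, 11 of 21 tested receptor and adaptor genes were higher in recruited cells on day 3 and 1 lower, with a list median of 0.56 log2 against 0.05 over all tested genes. Traf1, an adaptor of TNF receptors, was higher by 3.43 ± 0.47, the cytokine gene Lta by 3.09 ± 0.72 and Birc3, a ubiquitin ligase of the receptor complex, by 1.61 ± 0.17 (adjusted p = 5.82e-06, 0.00114 and 8.34e-08). Of the NF-kB subunits and kinases 10 of 11 were higher on day 3 and 0 lower, among them Nfkb2 (0.98 ± 0.13) and Relb (0.79 ± 0.15), and on day 12 2 were higher. Of the other inhibitors of NF-kB and Toll-like receptor signalling 17 of 27 were higher and 3 lower on day 3, among them Nfkbiz (1.90 ± 0.72) and Atf3 (1.72 ± 0.47), a repressor of inflammatory genes, and 7 were higher and 3 lower on day 12. Between days 3 and 6 in recruited cells, 14 of these inhibitors fell and 1 rose, with Nfkbie, another IkB gene, at -2.19 ± 0.22 log2 (adjusted p = 1.36e-07).

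In the JAK-STAT pathway 4 of 11 kinases and factors were higher in recruited cells on day 3 and 0 lower, not far from the background of 46.6%. On days 6 and 9 1 was higher and 3 lower on each, and on day 12 2 were higher and 1 lower. Those higher on day 3 include Jak2 (2.34 ± 0.15 log2, adjusted p = 4.57e-11) and Stat2 (1.07 ± 0.17). In recruited cells the day 6 difference from day 3 was -1.86 ± 0.14 log2 for Jak2 and -1.66 ± 0.18 for Stat2. Among the other inhibitors of this pathway 8 of 15 were higher and 2 lower on day 3. Usp18, a negative regulator of interferon receptors, was higher by 3.05 ± 0.45, while Socs5 differed by -0.73 ± 0.12 (adjusted p = 1.21e-05 and 4.13e-05). Socs2 and Socs6 went the other way from Socs1 and Socs3 over time, higher in recruited cells on day 6 than on day 3 by 1.00 ± 0.22 and 1.02 ± 0.33 log2 (adjusted p = 0.0011 and 0.021). Cytokine receptors of the pathway were higher in 13 of 21 and lower in 3 on day 3 and higher in 11 and lower in 1 on day 12, with Lifr at 4.46 ± 0.57 and 4.85 ± 0.60 log2. Cytokines were higher in 10 of 15 and lower in 1 on day 3, with Il12a at 4.59 ± 0.54 and Il6 at 3.08 ± 0.82, and 10 of 15 fell and 2 rose in recruited cells from day 3 to day 6.

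Among MAP kinase phosphatases other than Dusp1, 3 of 12 were higher and 2 lower in recruited cells on day 3, near the background of 46.6%. Dusp4 was higher by 5.02 ± 0.52 and Dusp2 by 3.72 ± 0.59 log2 (adjusted p = 7.15e-08 and 2e-05), and on day 6 Dusp5 was at -2.76 ± 0.52. Among genes of mRNA decay and stability 10 of 19 were higher and 2 lower on day 3, including the Zfp36 paralog Zfp36l1 (2.4 ± 0.26 log2, adjusted p = 1.66e-07), which was also higher on days 6 (3.00 ± 0.27) and 12 (2.4 ± 0.27). Zc3h12c, of the Regnase family of RNA-cleaving proteins, rose in resident cells by 3.74 ± 0.27 log2 by day 3 and was still higher than in untreated cells on day 12, by 1.59 ± 0.27 (adjusted p = 1.66e-09 and 0.00234). Of 9 glucocorticoid-responsive genes 1 was higher and 1 lower on day 3, with Anxa1, which encodes annexin A1, at -1.06 ± 0.18. Of 17 stress MAP kinases 6 were higher and 4 lower, of 21 immediate early genes 8 and 2, and of 10 heat shock genes 2 and 1. In resident cells on day 12, where 1.3% of all tested genes passed, 3 of 27 inhibitors of NF-kB and Toll-like receptor signalling were above untreated cells and 0 below, namely Nlrc5 (1.11 ± 0.23), Irak3 (0.64 ± 0.15) and Tnip1 (0.60 ± 0.13).

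Across the 9 group means of log2 CPM, each member was compared with 9825 tested genes of at least 5 CPM on average. The points share libraries and the day 3 peak, so the correlations are descriptions. The genes nearest to Tnf were Cxcl10 (r = 0.986), 1810037I17Rik (0.984) and Il1f9 (0.976). Those nearest to Socs1 were Lpxn (0.993), Tnip3 (0.992) and Foxp4 (0.991), and to Socs3 Gm5424 (0.998), Fcrlb (0.993) and Cd38 (0.991). Tnfaip3 lay nearest to Il1a (0.993) and Bak1 (0.991), and Nfkbia to Sod2 (0.993), with Calhm6 close to both (0.990 and 0.992). Zfp36 lay nearest to Nfil3 (0.984), Dusp1 to Gnpnat1 (0.979), Il10ra to Ethe1 (0.992), Il10 to Usb1 (0.986) and Cish to Rpl36 (0.955). Among the members themselves the closest pair was Tnfaip3 and Nfkbia (0.98), followed by Tnf and Tnfaip3 (0.95).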

How the data were processed

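Per the labels, poly(A) RNA of sorted cells was made into libraries with a modified stranded mRNA kit and run as barcoded pools on an Ion Proton. The authors deposited raw read counts per Ensembl gene, without normalization, 1 column for each of 27 libraries, and a second table with counts of reads not assigned to a gene. Tools named in the submitters' processing notes, with no role given, are HTSeq 0.6.0, STAR 2.4.0a, R 3.1.0 and DESeq2 1.4.5, with build mm10. The gene annotation behind the counts, and whether they used strand, are not given in the sources read. Reads not assigned to a gene stayed out of library sizes and tests (outside genes 6.77% to 26.5%, ambiguous 1.01% to 1.66% of reads).

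Here gene symbols and positions came from GENCODE M21, which names 36345 of 38124 genes. edgeR 4.0.16 in R 4.3.3 kept genes by filterByExpr (minimum count 10, minimum total 15), scaled by TMM and fitted the 27 libraries together with 1 mean for each group, leaving 18 residual degrees of freedom. The robust quasi-likelihood F test, two-sided, was adjusted by Benjamini-Hochberg over all 13599 tested genes in each of 14 comparisons, with a threshold of 0.05. Log2 CPM used a prior count of 2. Library totals were 11093216 to 18299674 counts, and with 3 libraries a group an exact permutation test could not pass 0.05. The procedure was tested on simulated data. Alternatives were size factors of DESeq2, library size alone, no filter, the compared groups alone, DESeq2 1.42.0, library number as a covariate, a replicate block and leaving out each library.

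Equal replicate numbers were checked for pairing. Deviations from group means correlated across genes in 12 of 12 resident and recruited pairs of a day (r = 0.166 to 0.518), each library correlating best with its own number. The pairing comes from these data, not from the labels. Blocked values or counts are given for results whose call they change. Genes were named by rule: all members, and from each pathway list up to 3 genes that passed without overlap between the libraries compared, by size of change; 1 gene so selected is not reported here. Fos, Fosb and Klf4 were named after their values were seen. Likeness was Pearson's r over 9 group means among genes of at least 5 CPM. The members and lists were chosen with earlier results of these data known. RefSeq promoter windows and GENCODE M21 untranslated regions gave the sequences.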

Additional observations from a re-analysis of the deposited data

Results flagged for a closer look

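The share of reads outside genes was 26.5% in recruited day 6 replicate 2, above the untreated libraries, the highest of which had 11.2%. The table of unassigned reads is outside the gene measurements.

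Several members differed in the gap between recruited and resident cells across days when libraries were compared within day and replicate number. The gap on day 6 minus that on day 3 was 0.65 log2 for Cish and -0.96 log2 for Tnfaip3. The gap on day 12 minus that on day 3 was 0.69 log2 for Cish, -0.94 for Tnfaip3, -0.66 for Nfkbia and -0.46 for Il10ra. Adjusted p-values with the replicate block were 0.0343 and 0.016 on day 6, and 0.021, 0.0146, 0.045 and 0.0349 on day 12. In the edgeR fit of all 27 libraries without the block none of these 6 differences passed. Without recruited day 12 replicate 3, those of Nfkbia and Il10ra on day 12 passed unblocked (-1.27 and -0.62 log2, adjusted p = 0.0247 and 0.037).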

How the results depend on the processing

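The population counts depended on the replicate block of day and number. With it, 9 members passed on the average over days and 9 on day 3 (5 and 5 without it). On day 6 5 passed and on day 12 5 (3 and 3 without it). For the change of the gap 2 passed on day 6 and 4 on day 12 (0 and 0 without it). The cause of these shifts was not tested. On day 9 the block changed no count. The numbers did not pair libraries over time (21 pairs, r = -0.147 to 0.232, 10 best with their own number); with a number block 2 members passed in resident cells on day 6 against 1 without it. Resident day 6 also gave 2 with library number as a covariate, with the compared groups alone and with DESeq2. The added member was Tnf, lower than in untreated cells, with the number block and with the compared groups alone. It was Socs1, higher, with library number as a covariate and with DESeq2 (1.33 and 1.32 log2, adjusted p = 0.0301 and 0.0234). Resident day 9 gave 1 with DESeq2 and 0 in edgeR, recruited against resident cells on day 6 gave 5 with the compared groups alone, and the comparison of library numbers gave 5 with library size alone. Resident day 3 gave 4 members in the fit of all groups and up to 6 in alternatives, Tnf and Dusp1 being added. Recruited day 6 against day 3 gave 6 and up to 7, Cish being added. For all of these the cause was not tested. The fall of Tnf in recruited cells from day 3 to day 12 was no longer past the threshold with the number block (-4.02, adjusted p = 0.106), nor were the day 9 falls of Il10ra and Zfp36 (-0.36 and -1.68, adjusted p = 0.172 and 0.114). Leaving out 1 library at a time gave 3 to 7 members for the average over days, 4 to 6 on day 3, 0 to 1 for resident day 9, 5 to 6, 6 to 8 and 6 to 9 for recruited days 6, 9 and 12, and 0 to 3 for the change of the gap on day 12. The lowest value of the average and the highest of the last 2 came without recruited day 12 replicate 3. In 4 cases a sign turned, none of them called: Zfp36 in recruited against resident cells on day 12 was -0.29 without recruited day 12 replicate 3 (range -0.29 to 1.59 without 1 library), and the change of the Tnf gap on day 12, -0.40, was 0.06 without resident day 12 replicate 3, 0.10 without recruited day 12 replicate 1 and 0.05 without replicate 2 (range -2.33 to 0.10). Of the values of single members under alternatives, 1116 kept their direction and side of the threshold, 37 were no longer past it, 55 were newly past it and 4 turned. Socs1 and Il10ra were past the threshold in recruited against resident cells on each day under all alternatives run. Low depth limits Il10, whose later groups hold 0 to 2 counts.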
